A study of Mus musculus with 12 samples.

Results

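The subject here is a set of 47 interferon-stimulated genes, the genes that a cell switches on when an interferon reaches its receptor. They were taken by symbol from a written list, and all 47 were found among the 43432 genes of the count table. The list was chosen with earlier results of these data known. Expression was read by RNA sequencing in 12 libraries of live, single EpCAM+ epithelial cells of Flare25 mice, an IL-25 reporter strain in which red fluorescence marks the cells that transcribe Il25. Cells of the proximal small intestine and of the gallbladder were each sorted into an IL-25+ and an IL-25- fraction, which gave 4 groups of 3 libraries, called here SI-pos, SI-neg, GB-pos and GB-neg and numbered 1 to 3. All groups carry the reporter. For the 6 gallbladder libraries the labels list HDM AF647, given to the mice 1 day earlier, the 6 small intestine libraries carry no treatment label, and the protocol field of all 12 speaks of homeostasis. Tissue and that treatment label therefore cannot be told apart. Age and sex are not given in the labels used here. Nothing in the labels ties the 3 libraries of a group to different animals, and the p-values thus cover the spread of these libraries, which may be technical.

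Interferons are secreted proteins that warn cells of viral infection. Type I and type III interferons bind different receptors (Ifnar1 with Ifnar2, and Ifnlr1 with Il10rb) and activate the same factor, a complex that contains Stat2 and Irf9 and binds the interferon-stimulated response element (ISRE) in promoters. Type II interferon uses Ifngr1 with Ifngr2 and acts at a different element, the gamma-activated site (GAS). The induced genes sense viral RNA (Ddx58, Ifih1), make the second messenger that activates RNase L (the Oas genes), block translation or assembly of viruses (Eif2ak2, the Ifit genes, Mx1, Mx2, Rsad2), modify proteins with Isg15, and feed back on the pathway (Irf7, Stat2, Usp18). In intestinal epithelium type III interferon is known as the main antiviral interferon. Tuft cells, rare chemosensory epithelial cells, are the main epithelial source of IL-25.

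The response element itself can be read in the promoters of the members. RefSeq promoters of build GRCm38.p6, from 250 bases before to 50 bases after a transcript start, were at hand for 37 of the 47 members (47 promoters). The core searched was GAAANNGAAA, or TTTCNNTTTC on the other strand, with overlapping matches allowed. It was present in 23 of the 47 member promoters (48.9%) and in 1131 of all 32851 promoters (3.44%). By gene, 20 of 37 members (54.1%) had a match, against 3.99% of all genes. The GAS core TTCNNNGAA, which reads the same on both strands, was in 9 of 47 member promoters (19.1%) and in 8.3% of all promoters. The windows below are examples from members described later, chosen with the values known among those with a match before the start. Ifit3, which passed in no comparison, is shown for its likeness to Ifit3b. Each window is 40 bases of the gene's own strand, with 1 ISRE core in capitals.
Isg15, a ubiquitin-like protein, chr4:156200866-156200905, minus strand, core 67 bases before the start: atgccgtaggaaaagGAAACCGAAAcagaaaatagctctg
Ifit1, which binds foreign RNA ends, chr19:34640789-34640828, plus strand, core 80 bases before the start: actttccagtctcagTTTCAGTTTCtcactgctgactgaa
Ifit3, chr19:34583392-34583431, plus strand, core 117 bases before the start: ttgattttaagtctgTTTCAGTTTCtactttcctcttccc
Ifit3b, its near copy, chr19:34607788-34607827, plus strand, core 149 bases before the start: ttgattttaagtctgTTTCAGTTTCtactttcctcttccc
Rsad2, the antiviral enzyme viperin, chr12:26456548-26456587, minus strand, core 115 bases before the start: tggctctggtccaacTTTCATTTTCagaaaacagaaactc
Stat2, chr10:128270261-128270300, plus strand, core 217 bases before the start: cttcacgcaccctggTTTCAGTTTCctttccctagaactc
Oas1a, an oligoadenylate synthetase, chr5:120907515-120907554, minus strand, core 9 bases before the start: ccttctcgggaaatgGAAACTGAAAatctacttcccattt
Apol9b, an apolipoprotein L family gene, chr15:77729020-77729059, plus strand, core 32 or 81 bases before its 2 listed starts: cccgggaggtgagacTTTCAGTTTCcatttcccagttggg
The windows of Ifit3 and Ifit3b have the same letters, in both of their 2 matches, and so do those of Oas1a and Oas1g. In Ddx58, Eif2ak2 and Ifitm3 the matches lay after the start, centred 7 bases into the transcript in Ddx58, 23 in Eif2ak2 and 7 and 24 in Ifitm3. Members with no match in these windows include Irf7, Cmpk2, Ifi44, Ifit2, Oasl2, Samd9l, Xaf1, Sp100 and Lgals3bp. Mx1, Mx2, Oas2, Ifi27, Dhx58, Usp18, Rtp4, Zbp1, Parp9 and Parp14 were not in the promoter table.

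Libraries held 23703449 to 64736650 counts, of which mitochondrial genes took 7.13% to 34.9%, least in GB-pos and most in SI-neg. A list of 10 tuft cell genes summed to between 3.47e+04 and 4.16e+04 CPM (read counts scaled to a common library size) in SI-pos and between 2.3e+04 and 2.46e+04 CPM in GB-pos, against 29.7 to 263 CPM in the IL-25- libraries. A list of 6 plasmacytoid dendritic cell genes summed to 37 to 49.4 CPM in SI-pos, 58.3 to 176 CPM in SI-neg, 143 to 158 CPM in GB-pos and 52.4 to 54 CPM in GB-neg. Its defining marker Siglech was at 0 in all 12 libraries, and most of the list's sum was Tcf4, with Klk1 in SI-neg. Enterocyte genes summed to 542 CPM in GB-neg 1 and to 10.8 and 12.4 CPM in the other two GB-neg libraries, so that intestinal transcripts were present in GB-neg 1. In these bulk libraries a change in the number of expressing cells and a change in RNA per cell cannot be told apart.

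Member transcripts were most abundant in the IL-25+ cells of the small intestine. Library sizes behind the CPM were scaled by the trimmed mean of M values (TMM). The 47 members summed to 8341, 1.072e+04 and 1.014e+04 CPM in SI-pos 1 to 3 and to 2689, 3328 and 2209 CPM in SI-neg 1 to 3. In the gallbladder the sums were 2612, 3731 and 3097 CPM in GB-pos 1 to 3 and 1908, 2595 and 3003 CPM in GB-neg 1 to 3. The SI-pos sums lay above all others, and the gallbladder fractions overlapped. Lgals3bp, a secreted glycoprotein that binds galectin 3, made up a large share in each group, and without it the sums still ran from 5700 to 7543 CPM in SI-pos and from 1150 to 2573 CPM in the other 9 libraries.

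Per kilobase of exon (RPKM), Lgals3bp had the highest level of the members in every group, 1050 ± 110 RPKM (SD, n = 3) in SI-pos, 278 ± 26.3 in SI-neg, 346 ± 100 in GB-pos and 351 ± 106 in GB-neg. The next in SI-pos were the oligoadenylate synthetase Oas2 (253 ± 87.7 RPKM) and its relative Oasl2 (212 ± 33 RPKM). In SI-neg they were Ifitm3, a membrane protein that restricts viral entry (147 ± 85.5 RPKM), and Trim25, a ubiquitin ligase (50 ± 17.1 RPKM). Oasl2 (77.3 ± 10.1 RPKM) and Stat2 (43.3 ± 7.28 RPKM) followed in GB-pos, and Oasl2 (51.4 ± 22.3 RPKM) and Trim25 (45.5 ± 2.4 RPKM) in GB-neg. At the other end, Ifit2, Ifit3b, Mx1, Mx2, Gbp2, Apol9a and Apol9b lay between 0.00449 and 0.0988 RPKM in GB-pos.

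**Figure D1:**
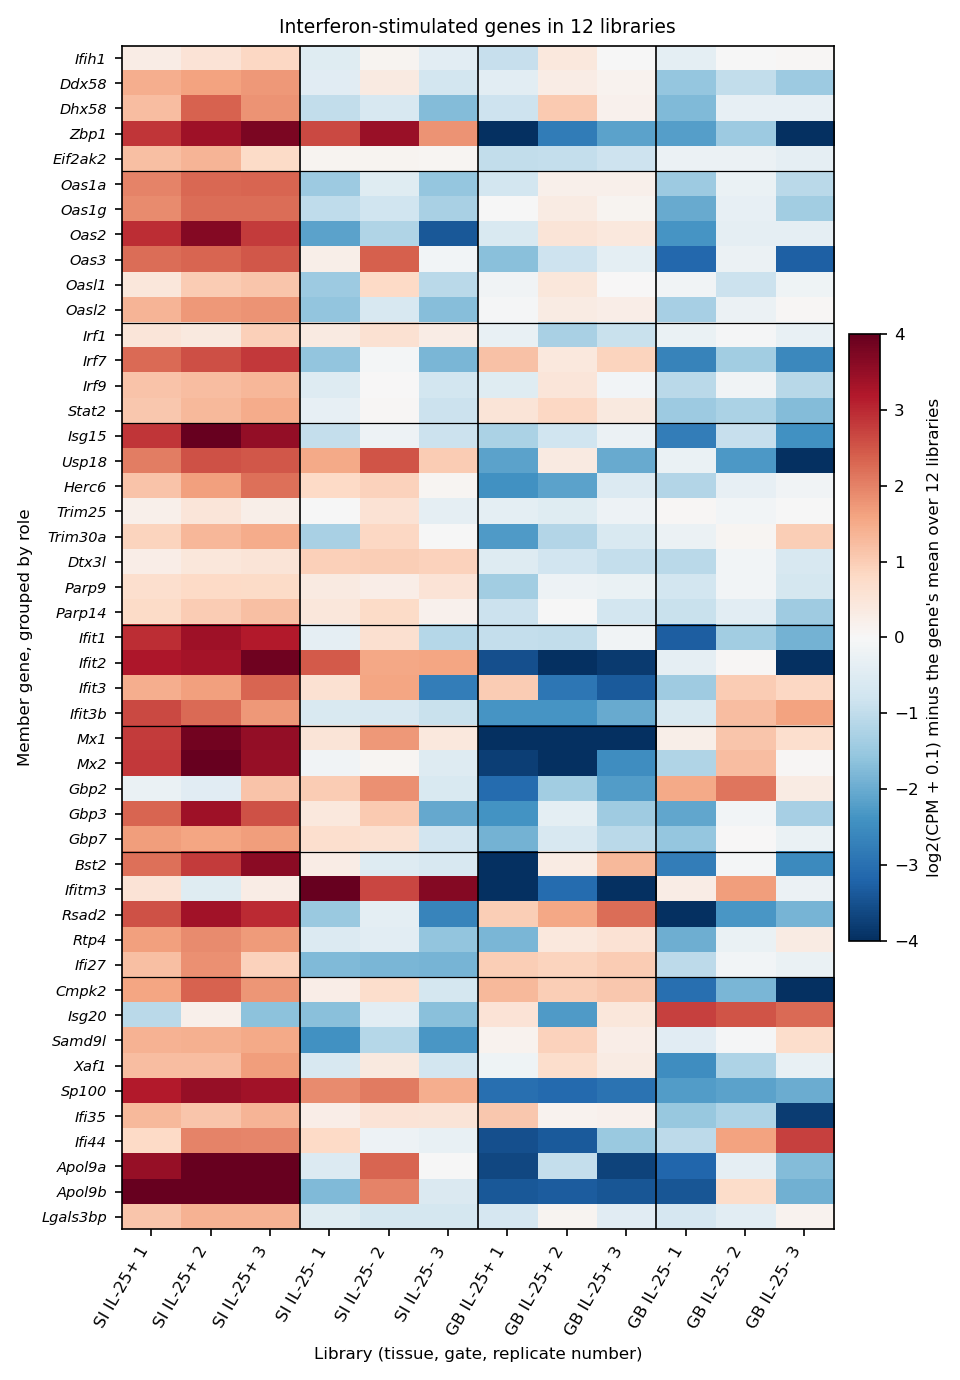
Heat map of the 47 members (rows, grouped by role) in 12 libraries (columns). Colour is log2(CPM + 0.1) minus the gene's mean over the 12 libraries, cut at 4 either way, and most members are red in the 3 SI-pos libraries, while Mx1, Mx2 and Ifit2 are blue in GB-pos.

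In the small intestine, most of the members that passed the test were higher in IL-25+ cells. Differences are log2 fold changes with their standard error (SE) from edgeR's quasi-likelihood test, with p-values adjusted by Benjamini-Hochberg over the 16636 genes tested, and a gene was called at an adjusted p below 0.05. All 47 members were among the genes tested. Of them, 25 were higher in SI-pos than in SI-neg, 1 was lower and 21 did not pass, against 14.5% of all tested genes called higher and 12.8% called lower. The median over the 47 members was a log2 fold change of 1.62, against -0.07 over all genes tested. In 35 members every SI-pos library lay above every SI-neg library, which was so in 24.9% of all genes. Mitochondrial counts were lower in SI-pos (12.1% to 17.2%) than in SI-neg (26.6% to 34.9%), and the sums of the T cell list overlapped (7.46 to 74.2 CPM in SI-pos, 11.7 to 82.5 CPM in SI-neg). Other lists were lower in every SI-pos library than in any SI-neg library. Enterocyte genes summed to 3.06e+03 to 3.8e+03 CPM against 8.65e+03 to 1.62e+04 CPM (0 of 8 called), and stromal and endothelial genes to 0.49 to 0.851 CPM against 3.74 to 10.4 CPM. The plasmacytoid list was also lower, with Klk1 the 1 gene of 4 tested that was called. The part of these lists in the member differences was not tested.

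The oligoadenylate synthetases, which sense double-stranded RNA and activate RNase L, held the highest fold change of the members. Oas2 stood at 955, 1570 and 853 CPM in SI-pos 1 to 3 and at 27.8, 53.4 and 11.5 CPM in SI-neg 1 to 3, which is a log2 difference of 5.19 ± 0.73 (SE, adjusted p = 0.000441). Oasl2, a synthetase-like family member, was at 1110, 1440 and 1510 CPM against 145, 275 and 131 CPM, for a log2 change of 2.88 ± 0.36 (adjusted p = 7.07e-05). The groups of both genes were far apart. Oas1a (91.2, 112 and 115 CPM against 8.16, 16.4 and 7.69 CPM) and Oas1g (88.9, 113 and 113 CPM against 11.7, 13.5 and 9.6 CPM) were higher by 3.30 ± 0.42 and 3.17 ± 0.39. These neighbours share many 50-base stretches (57.6% of those of Oas1a and 45.2% of those of Oas1g), so their counts are uncertain as separate values. The remaining pair did not pass. Oas3 read 107, 113 and 128 CPM against 26.5, 119 and 20.8 CPM, and Oasl1 82.4, 124 and 130 CPM against 22.1, 106 and 28.6 CPM. In both, SI-neg 2 lay within the SI-pos range while the other two SI-neg libraries were low.

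Of the 4 transcription factors, 3 were higher in SI-pos. Irf7, the factor that amplifies interferon production, was at 288, 361 and 430 CPM in SI-pos and at 20.1, 56.7 and 16.9 CPM in SI-neg, a log2 difference of 3.53 ± 0.50 (adjusted p = 0.000271). Stat2 was at 357, 421 and 472 CPM against 134, 175 and 92.7 CPM (1.64 ± 0.24, adjusted p = 0.000242), and its partner Irf9 was higher by 1.60 ± 0.32 (adjusted p = 0.00234). None of these 3 genes overlapped between the fractions. Irf1, which type II interferon induces strongly, averaged 109 ± 25.2 CPM (SD, n = 3) in SI-pos and 95.8 ± 11.9 CPM in SI-neg and did not pass (0.19 ± 0.26, adjusted p = 0.62).

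Among the 5 sensors, Ddx58 (RIG-I), Dhx58 (LGP2) and Eif2ak2 (the kinase PKR) were higher in SI-pos, by 1.80 ± 0.29, 2.93 ± 0.55 and 1.02 ± 0.19. Ddx58 was at 176, 193 and 213 CPM against 47.1, 82.1 and 38.5 CPM, and Eif2ak2 at 144, 160 and 107 CPM against 67.6, 68.4 and 67 CPM. Ifih1 (MDA5) had log2 fold change 0.81 ± 0.30 with an adjusted p of 0.0627, although its libraries did not overlap. Zbp1, a sensor of Z-form nucleic acid, ranged from 75.9 to 142 CPM in SI-pos and from 36.1 to 114 CPM in SI-neg and did not pass.

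Isg15 was the member of its group that passed. It read 23.8, 54.5 and 37.2 CPM in SI-pos and 1.6, 2.74 and 1.73 CPM in SI-neg, a log2 difference of 4.25 ± 0.63 (adjusted p = 0.000295). The 7 others of the Isg15, ubiquitin and ADP-ribose group did not pass, with log2 fold changes from -0.53 for Dtx3l, a ubiquitin ligase, to 1.18 for Trim30a. Usp18, which removes Isg15 from proteins, averaged 27.2 ± 4.82 CPM in SI-pos and 18.6 ± 10.3 CPM in SI-neg. Dtx3l and Parp9 overlap on opposite strands by 458 exonic bases, and reads without strand cannot assign that stretch.

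Of the 24 effectors (the Ifit family, the GTPases, the membrane-associated proteins and the remaining inducible genes), 14 were higher, 1 was lower and 9 did not pass. Ifit1 was higher by 3.31 ± 0.54 (90.2, 120 and 105 CPM against 8.93, 17.8 and 5.18 CPM). Mx1, a dynamin-like GTPase that traps viral components, was at 67.6, 143 and 112 CPM against 14, 32.5 and 12.9 CPM (2.44 ± 0.46, adjusted p = 0.00174). Its neighbour Mx2 was at 12.4, 41.3 and 19.4 CPM against 1.48, 1.77 and 1.14 CPM (4.05 ± 0.92, adjusted p = 0.00558). In each of these genes the lowest SI-pos library was well above the highest SI-neg library. Rsad2 (61.2, 107 and 82.6 CPM against 3.59, 7.81 and 1.57 CPM) was higher by 4.28 ± 0.80, and Rtp4, a receptor-transporting protein, by 2.53 ± 0.63. Ifi27, a small hydrophobic protein, had the lowest adjusted p of the members (8.69e-06), with 74.5, 115 and 61.5 CPM against 9.52, 9.08 and 8.86 CPM (3.19 ± 0.31). Samd9l, a growth-restraining antiviral factor, was at 267, 271 and 289 CPM against 18.9, 45.7 and 20 CPM (3.29 ± 0.39, adjusted p = 5.06e-05). Lgals3bp was at 2640, 3170 and 3190 CPM against 879, 755 and 744 CPM (1.92 ± 0.25, adjusted p = 9.19e-05), and Sp100, a nuclear body protein, at 173, 213 and 198 CPM against 71.7, 80.9 and 52 CPM (1.51 ± 0.21, adjusted p = 0.000148). Cmpk2, a mitochondrial nucleotide kinase beside Rsad2 on chromosome 12, and Xaf1 were higher by 1.76 ± 0.54 and 1.62 ± 0.49.

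Ifitm3 ran the other way. It read 10.3, 5.06 and 8.8 CPM in SI-pos and 161, 46.1 and 92.3 CPM in SI-neg, a log2 difference of -3.63 ± 0.71 (adjusted p = 0.00234). Every SI-pos library was below every SI-neg library. Its relative Ifitm2 averaged 34.7 CPM in SI-pos and 60.7 CPM in SI-neg and did not pass (-0.81 ± 0.42, adjusted p = 0.179).

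Of these 26 calls, 21 held under each alternative fit and each left-out library. The Gbp3 call (2.56 ± 0.86, adjusted p = 0.0415) was lost when any 1 SI-pos library, SI-neg 1 or SI-neg 3 was left out (adjusted p 0.0592 to 0.151), with RLE size factors (0.0541) and without SI-neg 3 and GB-neg 1 together (0.0828). Those of Cmpk2 (0.0569 to 0.107) and Xaf1 (0.0521 to 0.101) were lost when SI-pos 2, SI-pos 3, SI-neg 1 or SI-neg 3 was left out, Cmpk2 also without SI-neg 3 and GB-neg 1 together (0.109), and that of Apol9b (4.42 ± 1.27) without SI-pos 3 or SI-neg 1 or 3 (0.0557 to 0.0901) and with no filter (0.0809). Ifit3b (3.43 ± 1.19, adjusted p = 0.0474) lost its call without any 1 of the 6 small intestine libraries, GB-neg 2 or GB-neg 3 (0.056 to 0.14), and in 5 other settings (0.0545 to 0.141). Ifit3b shares 44.5% of its 50-base stretches with Ifit3, and Apol9b 52.3% of its own with Apol9a.

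In the gallbladder, calls among the members went both ways, as they did over all genes. Of the 47, 9 (19.1%) were higher in GB-pos than in GB-neg, 10 (21.3%) were lower and 28 did not pass, where 12.4% of all genes were called higher and 14.4% lower. The median log2 fold change of the members was 0.04, against -0.15 over all genes. The libraries did not overlap in 10 members with higher GB-pos values (21.3%, against 17.8% of all genes) and in 11 with lower ones (23.4%, against 23.4%), shares near those of all genes. Several marker lists differed between the gallbladder fractions. The B and plasma cell list summed to 26.5 to 37.7 CPM in GB-pos and to 1.18 to 1.3 CPM in GB-neg. Cd79b (25.7 to 29 CPM in GB-pos) made up most of it and was the 1 gene of 2 tested called higher, while Cd79a, Ms4a1, Jchain and Iglc2 were at 0 in both fractions. The plasmacytoid list was higher in GB-pos, with Tcf4 and Ccr9 called higher and Klk1 lower of 4 tested. Of 8 gallbladder epithelium genes, 7 were called lower in GB-pos, with sums of 1.3e+03 to 1.74e+03 CPM against 1.05e+04 to 1.55e+04 CPM. The myeloid and dendritic list summed to 6.38 to 25.3 CPM in GB-pos and to 53.7 to 233 CPM in GB-neg, with C1qa, C1qb, C1qc and S100a8 at 0 in GB-pos and Flt3 and S100a8 at 0 in GB-neg. Most of the highest sum was Itgam, at 211 CPM in GB-neg 2. Mitochondrial counts were 7.13% to 8.83% in GB-pos and 11.2% to 25% in GB-neg. The part of these lists and of the mitochondrial share in the member differences was not tested. Leaving the mitochondrial genes out of the fit kept the counts of member calls unchanged. That cannot test their part, because it removes only those genes' own counts.

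The higher members included 2 of the 4 transcription factors. Stat2 was at 245, 304 and 221 CPM in GB-pos and at 62.7, 71.1 and 51.5 CPM in GB-neg, a log2 difference of 2.05 ± 0.24 (adjusted p = 4.19e-05). Irf7 was at 135, 81.2 and 111 CPM against 9.5, 23.2 and 10.1 CPM (2.94 ± 0.49, adjusted p = 0.000829). The lowest GB-pos library was over the highest GB-neg library by a wide margin in both. Irf9 (0.72 ± 0.31, adjusted p = 0.106) and Irf1 (-0.58 ± 0.26, adjusted p = 0.117) did not pass.

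Rsad2 and Cmpk2, which lie next to each other on chromosome 12 at 26442746-26456452 and 26469204-26479837 in GRCm38, showed the largest increases of the members. Rsad2 read 20.5, 30.4 and 48.5 CPM in GB-pos and 0.239, 1.98 and 2.76 CPM in GB-neg (4.35 ± 0.81, adjusted p = 0.00196). Cmpk2 read 34.4, 28.1 and 29.7 CPM against 1.66, 3.84 and 0.52 CPM (3.94 ± 0.60, adjusted p = 0.000341). Both were low in each GB-neg library. Ifi27 (63.7, 60.1 and 65.7 CPM against 15.5, 30.2 and 27.1 CPM) was higher by 1.38 ± 0.29, and Ddx58 (47.3, 78.4 and 69.9 CPM against 22, 31.9 and 23.4 CPM) by 1.34 ± 0.29. Ifi35, a binding partner of Nmi, was higher by 2.37 ± 0.51 (41.6, 21.6 and 22.1 CPM against 6.82, 8.3 and 1.33 CPM). An antisense gene, Gm11626, covers 16.8% of its exonic bases, and reads without strand cannot part the pair.

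The lower members were led by Mx1. Mx1 (chr16:97447035-97462907) read 0.348, 0.0742 and 0.296 CPM in GB-pos and 11.3, 21 and 15.5 CPM in GB-neg, a log2 difference of -5.99 ± 0.58 (adjusted p = 8.49e-06). Mx2 (chr16:97535308-97560900) read 0.029, 0 and 0.215 CPM against 0.66, 4.08 and 1.72 CPM (-4.58 ± 1.01, adjusted p = 0.00458). Neither gene overlapped between the fractions, and they share 3.86% of the 50-base stretches of Mx1 and 4.38% of those of Mx2. Ifit2, on chromosome 19 with the other Ifit genes, was near 0 in GB-pos, with 3 counts over the 3 libraries against 155 in GB-neg, a ratio of CPM of 37.5 (95% counting interval 12.6 to 184). GB-neg 3 also held 0 counts of Ifit2, so the groups overlap in that gene. Ifit3b had 1 count in GB-pos and 101 in GB-neg, a ratio of 73.2 (12.8 to 2.92e+03). Intervals of this kind cover counting error only.

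Ifi44 read 0.261, 0.297 and 1.37 CPM in GB-pos and 1.89, 12.5 and 27.2 CPM in GB-neg (-4.41 ± 0.97, adjusted p = 0.00436), with a wide range inside GB-neg. Ifitm3 was lower here too, at 0.203, 0.742 and 0.0808 CPM against 8.8, 22.6 and 6.07 CPM (-5.24 ± 0.81, adjusted p = 0.00045). Thus Ifitm3 was lower in the IL-25+ fraction of both tissues. Isg20, an exonuclease, was at 6.24, 0.817 and 5.81 CPM against 28.9, 25.1 and 20.9 CPM (-2.54 ± 0.74, adjusted p = 0.0226). Gbp2 was low in all groups and lower in GB-pos (0.101 ± 0.113 CPM, SD, n = 3) than in GB-neg (2.31 ± 1.31 CPM). Smaller differences were seen in Sp100 (2.29, 2.12 and 2.37 CPM against 3.99, 4.22 and 4.71 CPM, -0.93 ± 0.21) and Eif2ak2 (32, 32.2 and 35.2 CPM against 53.2, 53 and 48.6 CPM, -0.64 ± 0.19).

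Members of high level that did not pass included Oasl2 (420, 542 and 517 CPM against 170, 368 and 446 CPM, 0.59 ± 0.34, adjusted p = 0.215), Oas2 (79.4, 174 and 164 CPM against 23.8, 95.3 and 96.1 CPM, 0.96 ± 0.61, adjusted p = 0.28) and Lgals3bp (759, 1310 and 891 CPM against 758, 902 and 1340 CPM, -0.02 ± 0.24, adjusted p = 0.96). None of the 8 genes of the Isg15, ubiquitin and ADP-ribose group passed in the gallbladder. Isg15 itself was low, at 1.28, 1.78 and 2.67 CPM in GB-pos and 0.379, 1.65 and 0.52 CPM in GB-neg.

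Of the 19 gallbladder calls, 10 held under each alternative. In a voom fit with quality weights, the calls of Mx2 (adjusted p 0.0599), Ifi44 (0.102), Sp100 (0.374) and Ifit2 (0.068) were lost, as was that of Eif2ak2 (0.0633). A fit of the gallbladder libraries alone ended the calls of Mx2 (0.0641), Sp100 (0.397), Eif2ak2 (0.101), Gbp2 (0.057), Oas1g (0.0781) and Xaf1 (0.0911). Without SI-neg 3 and GB-neg 1 together, those of Eif2ak2 (0.0774), Gbp2 (0.0581), Oas1g (0.0828), Isg20 (0.0637) and Xaf1 (0.125) were lost. The Eif2ak2 call was also lost with no filter on low counts (0.0581) and that of Xaf1 with RLE size factors (0.0513). Left-out libraries ended the call of Eif2ak2 (GB-pos 1 or 2, GB-neg 1 or 2, adjusted p 0.0564 to 0.0615), Gbp2 (GB-pos 1 or 3, GB-neg 1 or 2, 0.0554 to 0.0815), Oas1g (1.23 ± 0.36, lost without GB-pos 2, GB-neg 1 or GB-neg 3, 0.0683 to 0.0759) and Isg20 (GB-neg 1, 0.0568). Xaf1 (1.43 ± 0.49, adjusted p = 0.0459) lost its call without any 1 of 9 libraries (0.0534 to 0.138), those kept being SI-neg 2, GB-pos 1 and GB-neg 3.

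**Figure D2:**
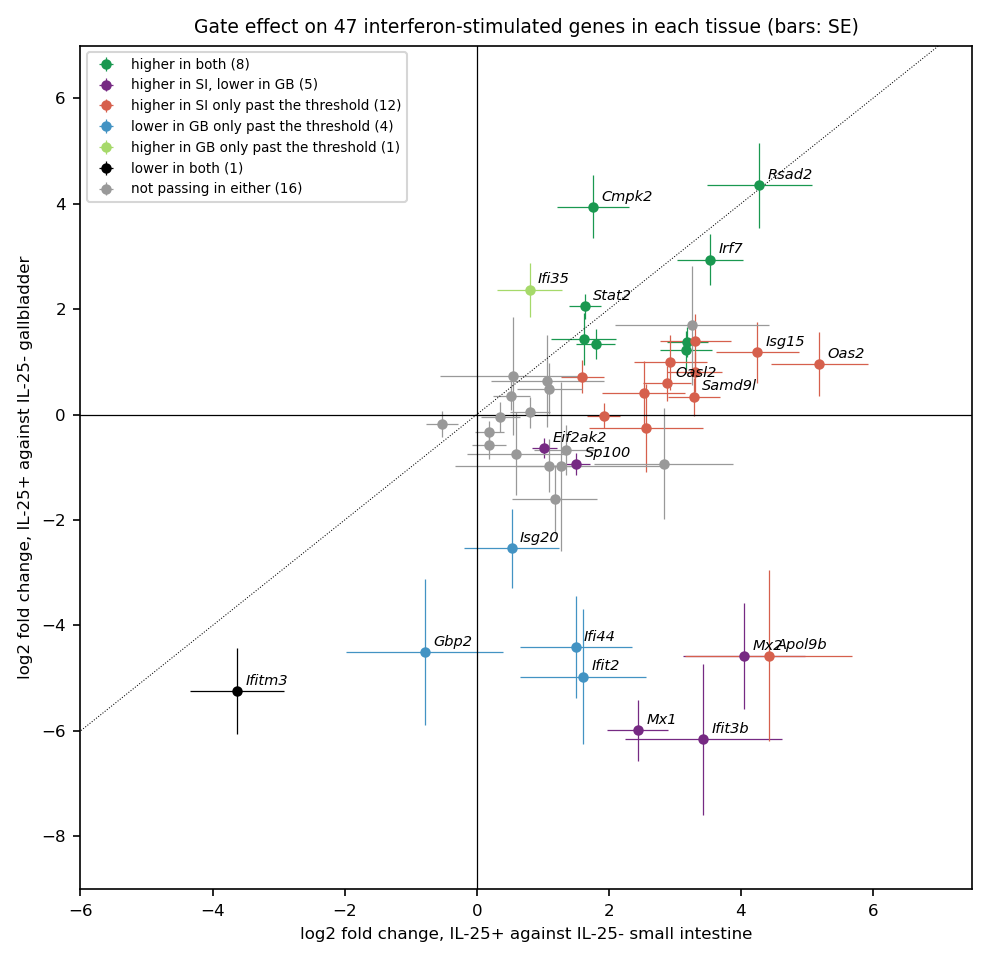
Log2 fold change of IL-25+ against IL-25- cells in the small intestine (horizontal) and in the gallbladder (vertical) for the 47 members, with SE bars and the line of equal change dotted. Colours give the calls in each tissue, and Mx1, Mx2 and Ifit3b sit at the lower right, while Rsad2, Irf7 and Stat2 lie near the line.

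Set side by side, 8 members were higher in the IL-25+ fraction of both tissues (Cmpk2, Ddx58, Ifi27, Irf7, Oas1g, Rsad2, Stat2 and Xaf1). A further 5 were higher in the small intestine and lower in the gallbladder (Eif2ak2, Ifit3b, Mx1, Mx2 and Sp100), and 16 passed in neither tissue. The shares of all genes with these joint calls were not computed, so the counts cannot be set against them. The difference of the gate effect between tissues was tested as an interaction. It was called lower in the gallbladder for 16 members and higher for 0, where 5.60% of all genes were called lower and 3.63% higher. At an unadjusted p below 0.05, 2 members (Cmpk2 and Ifi35) had a higher interaction by edgeR, and after adjustment DESeq2 called 1 (Cmpk2) and voom 0. The median interaction of the members was a log2 value of -1.94, against -0.11 over all genes. Of the 5 general epithelial genes, 2 were called lower in the interaction.

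Mx1 had the lowest adjusted p of the interaction, -8.43 ± 0.74 (adjusted p = 3.71e-05), then Sp100 (-2.44 ± 0.30, adjusted p = 0.000258), Mx2 (-8.63 ± 1.37, adjusted p = 0.00164) and Eif2ak2 (-1.66 ± 0.27, adjusted p = 0.00181). Lgals3bp (-1.94 ± 0.34), Samd9l (-2.95 ± 0.52), Ifit3b (-9.58 ± 1.86) and Oasl2 (-2.29 ± 0.48) followed, with adjusted p-values of 0.00313, 0.00323, 0.00577 and 0.00905. In Mx1, Sp100, Mx2, Eif2ak2 and Ifit3b the direction itself turned between tissues. Of these, Sp100, Mx2 and Eif2ak2 lost their gallbladder call in some of the alternatives given above, and Ifit3b its small intestine call. In Lgals3bp, Samd9l and Oasl2 the SI-pos libraries were high, and the gallbladder fractions overlapped. The genes that were higher in both tissues differed among themselves. Rsad2 (0.07 ± 0.98, adjusted p = 0.991) and Stat2 (0.42 ± 0.33, adjusted p = 0.503) did not pass, whereas Ifi27 (-1.81 ± 0.41, adjusted p = 0.0135) and Oas1g (-1.94 ± 0.51, adjusted p = 0.03) had a smaller increase in the gallbladder. Cmpk2 was the member with the highest positive value (2.18 ± 0.76, adjusted p = 0.0947).

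Of the 16 interaction calls, 11 held under each alternative. Calls of Oas1g and Isg15 were each lost without any 1 of 7 libraries (SI-pos 2 or 3, SI-neg 1 or 3, GB-pos 1 and GB-neg 2 in both, GB-pos 3 for Oas1g and GB-pos 2 for Isg15), with adjusted p-values of 0.0556 to 0.0744 and 0.0624 to 0.116. The Ifit2 call was lost without SI-pos 3 (0.0526), that of Apol9b without GB-pos 1, 2 or 3 (0.0542 to 0.0611) and with no filter (0.0634), and that of Ifi44 in the voom fit (0.0712). Voom also ended the call of Isg15 (0.118), and RLE size factors that of Oas1g (0.0509). Without SI-neg 3 and GB-neg 1 together, Ifit2 missed the threshold (0.0621).

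**Figure D3:**
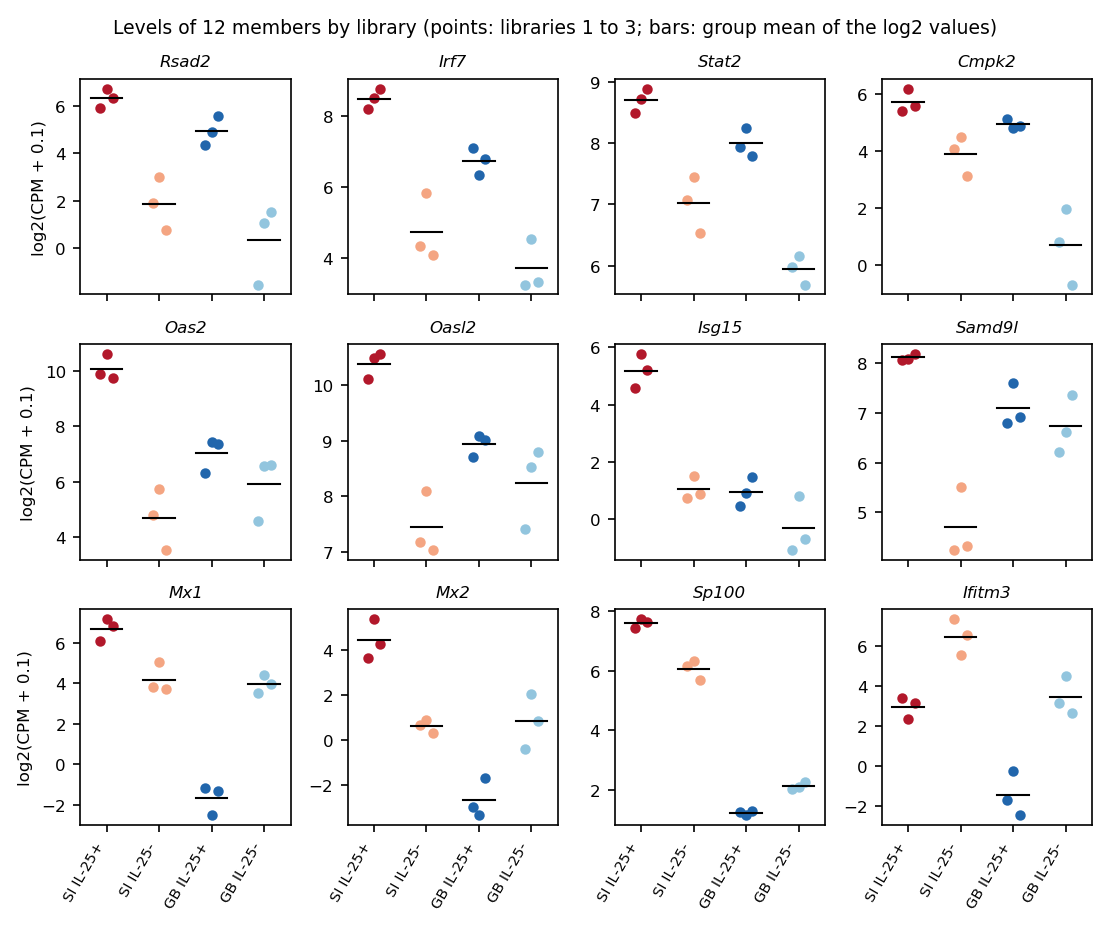
Level of 12 members as log2(CPM + 0.1) in each of the 12 libraries by group, with points for libraries 1 to 3 and a bar for the mean of the log2 values. Rsad2, Irf7, Stat2 and Cmpk2 are higher in the IL-25+ group of each tissue, Mx1, Mx2 and Sp100 are higher in SI-pos and lowest in GB-pos, and Ifitm3 is lower in both IL-25+ groups.

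Compared across tissues, the IL-25+ cells of the gallbladder had lower member levels. Of 47 members, 33 were lower in GB-pos than in SI-pos, 0 were higher (also 0 at an unadjusted p below 0.05 by edgeR and 0 by adjusted DESeq2 or voom tests) and 14 did not pass, against 13.1% of all genes called lower and 10.5% called higher. In 43 members every GB-pos library was below every SI-pos library, against 24.5% of all genes. The median log2 fold change was -2.05, against -0.09 over all genes. This comparison shares its SI-pos libraries with that of the small intestine fractions, so the lists are not independent. The T cell list summed to 7.46 to 74.2 CPM in SI-pos and 2.82 to 13.6 CPM in GB-pos, with Cd3g, Cd3d, Cd8b1, Trac and Nkg7 at 0 in GB-pos. Cd3e, a defining marker, was at 0.755, 1.77 and 2.47 CPM in SI-pos and at most 0.0269 CPM in GB-pos. The B and plasma cell list went the other way (0.682 to 6.61 CPM in SI-pos, 26.5 to 37.7 CPM in GB-pos, with Cd79b called higher), as did the plasmacytoid list (Tcf4 and Ccr9 called higher, Klk1 lower). All 8 enterocyte genes were called lower, their sums being 15.1 to 33.8 CPM in GB-pos against the 3.06e+03 to 3.8e+03 CPM of SI-pos, and of 8 gallbladder epithelium genes 5 were called higher and 1 lower. The part of these lists in the tissue difference was not tested.

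Sp100 had the lowest adjusted p (3.05e-08), with 173, 213 and 198 CPM in SI-pos and 2.29, 2.12 and 2.37 CPM in GB-pos (-6.43 ± 0.26). Mx1 was lower by 8.75 ± 0.64 on the log2 scale (adjusted p = 2.6e-06) and Mx2 by 8.08 ± 1.14 (adjusted p = 0.000264). Eif2ak2 differed less but with little spread (-2.05 ± 0.19, adjusted p = 1.34e-05). Of these 4 genes, Eif2ak2 alone was above 3 CPM in GB-pos. Against near-zero GB-pos counts, Ifit2 was 680-fold higher in SI-pos (1576 counts against 3, counting interval 232 to 3.3e+03) and Apol9b 1.49e+03-fold higher (3444 counts against 3, interval 508 to 7.21e+03). Zbp1 read 75.9, 111 and 142 CPM in SI-pos and 0.174, 1.41 and 2.29 CPM in GB-pos (-6.40 ± 0.95, adjusted p = 0.0007).

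By role, all 4 transcription factors were lower in GB-pos, as were 4 of 5 sensors, 5 of 6 oligoadenylate synthetases, 7 of 8 genes of the Isg15 group, 3 of 4 Ifit genes and 4 of 5 GTPases. The membrane-associated group had 1 of 5 (Ifitm3, -4.61 ± 0.79) and the remaining inducible genes 5 of 10. Rsad2 (-1.33 ± 0.71, adjusted p = 0.199), Cmpk2 (-0.82 ± 0.53, adjusted p = 0.289) and Ifi27 (-0.41 ± 0.28, adjusted p = 0.33), which were higher in the IL-25+ fraction of both tissues, did not pass between them. Stat2 did pass (-0.70 ± 0.23, adjusted p = 0.0449).

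Of the 33 calls, 25 held under each alternative. That of Stat2 was lost without any 1 of 8 libraries (SI-pos 1, 2 or 3, SI-neg 1, GB-pos 1 or 3, GB-neg 1 or 2, adjusted p 0.0547 to 0.157) and in DESeq2 (0.117), and that of Trim25 (-0.67 ± 0.22) without any IL-25+ library, GB-neg 1 or GB-neg 2 (0.0565 to 0.138). Without any 1 IL-25+ library, Oas3 (-3.23 ± 0.93) had adjusted p-values of 0.062 to 0.108. Dhx58 (-1.55 ± 0.53, adjusted p = 0.0483) lost its call without any 1 of 9 libraries, those kept being SI-pos 1, GB-pos 2 and GB-neg 1 (0.0512 to 0.18). Irf7 (without SI-pos 3, GB-pos 2 or GB-pos 3, 0.0569 to 0.0785), Irf9 (GB-pos 1 or 3, 0.055 to 0.0625) and Trim30a (SI-pos 3 or GB-pos 1, 0.0504 to 0.0543) did so too. Ifitm3 lost its call in the voom fit (0.0526). RLE size factors ended the calls of Stat2 (0.101), Trim25 (0.0986) and Dhx58 (0.0711), and Trim25 also missed the threshold in DESeq2 (0.115). With no filter on low counts, Oas3 (0.09), Irf7 (0.0624), Stat2 (0.0632) and Trim25 (0.0611) did not pass.

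Among the IL-25- cells, 12 of the 47 members were lower in GB-neg than in SI-neg, 3 were higher and 32 did not pass, where 11.7% of all genes were called lower and 13.0% higher. The median was -0.76, against -0.03 over all genes. Samd9l (73.7, 97.7 and 164 CPM in GB-neg against 18.9, 45.7 and 20 CPM in SI-neg, 1.99 ± 0.37), Ifi27 (1.41 ± 0.29) and Isg20 (3.71 ± 0.79) were the higher ones. Sp100 (3.99, 4.22 and 4.71 CPM against 71.7, 80.9 and 52 CPM, -3.99 ± 0.23, adjusted p = 5.07e-07) was the clearest of the lower ones, then Dtx3l (-1.52 ± 0.25), Zbp1 (-5.05 ± 0.88) and Cmpk2 (-3.00 ± 0.58). Ddx58, Stat2, Parp9, Parp14, Ifit1, Ifitm3, Ifi35 and Oas3 were also lower. Mx1 did not pass, at 11.3, 21 and 15.5 CPM against 14, 32.5 and 12.9 CPM (-0.31 ± 0.44, adjusted p = 0.661), nor did Mx2 (0.55 ± 0.83, adjusted p = 0.684). So the tissue difference in both Mx genes was seen in IL-25+ libraries, and its difference between gates is the interaction given above. Beside these values, T cell genes summed to 11.7 to 82.5 CPM in SI-neg and 6.02 to 17.4 CPM in GB-neg, and enterocyte genes to 8.65e+03 to 1.62e+04 CPM and 10.8 to 542 CPM, with 8 of 8 called lower in GB-neg.

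Single libraries ended some of the calls between the IL-25- fractions. Without SI-neg 2, Ddx58 had a log2 fold change of -0.73 and Ifit1 (-1.93 ± 0.52) an adjusted p of 0.0759, and the Ddx58 call was also lost without GB-neg 1 (adjusted p 0.0537 to 0.066). Oas3 went from -2.79 to -1.57 without SI-neg 2 and to -4.49 without GB-neg 2, and its call was lost without any 1 of 10 libraries (0.0575 to 0.201), those kept being SI-neg 3 and GB-neg 2. Parp9 (-0.87 ± 0.29, adjusted p = 0.0434) lost its call without any 1 of 10 libraries, those kept being GB-pos 1 and GB-neg 2 (0.0515 to 0.15). With no filter Oas3 (0.136) and Parp9 (0.0569) did not pass, nor did they without SI-neg 3 and GB-neg 1 together (0.0587 and 0.286). In a fit of the IL-25- libraries alone Oas3 (0.146) and Ifit1 (0.0758) missed the threshold. Without GB-neg 1, 5 members were higher in GB-neg, as were 1952 of all 17634 genes.

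**Figure D4:**
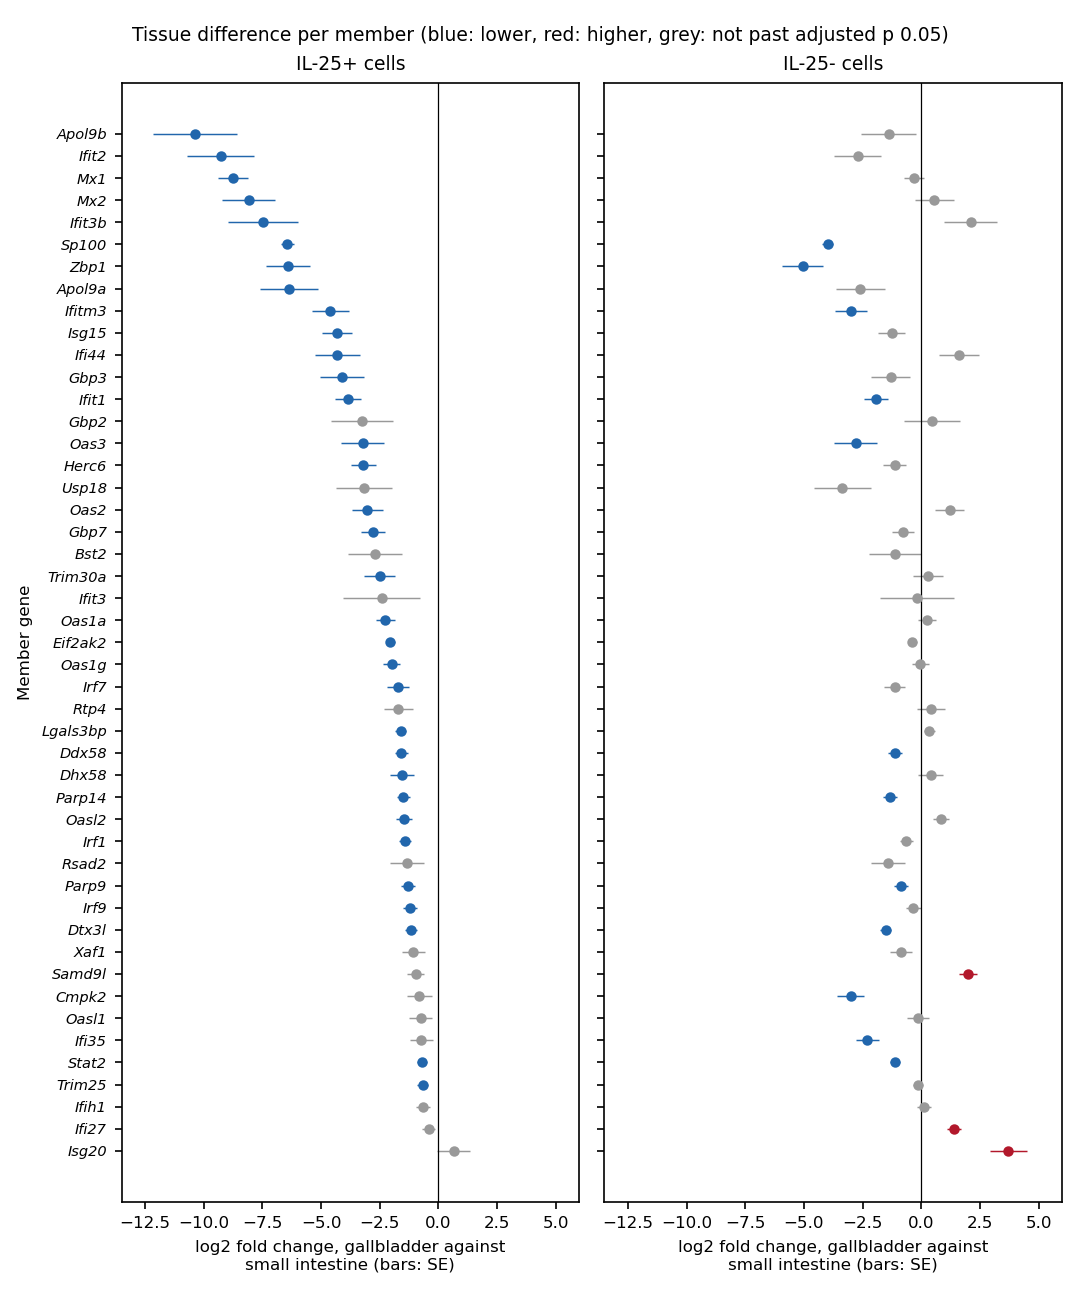
Log2 fold change of gallbladder against small intestine for each member, in IL-25+ cells (left) and in IL-25- cells (right), with SE bars and rows ordered by the left panel. Blue is lower, red higher and grey did not pass, and the left panel has 33 blue points and no red one, while the right has 12 blue and 3 red.

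Single libraries differed within their groups across many members at once. SI-neg 2 was the highest of its group in 38 of the 47 members, against 37.9% of all genes, with a median log2 deviation from the group of 0.49. SI-neg 3 was lowest in 36 (-0.41). In the gallbladder, GB-neg 2 was highest in 29 (0.53), against 28.3% of all genes, and GB-neg 1 lowest in 31 (-0.50). SI-pos 1 was lowest in 37 (-0.23), and GB-pos 1 lowest in 29 (-0.34). The share of all genes lowest in a library was not computed. The median deviation over all genes was between -0.13 and 0.11 in these 12 libraries. Of the SI-neg libraries, SI-neg 2 also had the highest T cell sum (82.5 CPM, with Cd3e at 8.31 CPM) and the largest mitochondrial share (34.9%). GB-neg 2 had the highest myeloid sum (233 CPM). GB-neg 1, which had the intestinal transcripts, was also the deepest library. Whether these have a part in the members' spread was not tested.

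Upstream of the members, interferon transcripts themselves were nearly absent. Of 10 ligand genes, 9 were too low to be tested, and Ifnb1, Ifna2, Ifna4, Ifna5, Ifnl3 and Ifng had 0 counts in all 12 libraries, which allows up to 3 counts per library. Ifnl2 had 2 counts in SI-pos 1 and Ifna1 2 in GB-pos 1. Ifne, an epithelial interferon, had 20 counts in SI-pos 2 and 0 in the other 11 libraries. Ifnk was at 0.0449 to 0.441 CPM as a group mean and passed in no comparison.

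All 6 receptor genes were expressed. In the small intestine 3 were higher in IL-25+ cells and 2 lower, and in the gallbladder 1 was higher and 2 lower. Over all genes, 14.5% were called higher and 12.8% lower in SI-pos, and 12.4% and 14.4% in GB-pos. Ifnlr1, the specific chain of the type III receptor, averaged 99.8 CPM in SI-pos and 43.6 CPM in SI-neg (1.20 ± 0.27, adjusted p = 0.00526), but 25.1 CPM in GB-pos and 56.7 CPM in GB-neg (-1.18 ± 0.27, adjusted p = 0.00577), and the interaction was called (-2.37 ± 0.38, adjusted p = 0.00178). Its shared chain Il10rb was higher in IL-25+ cells of both tissues (1.48 ± 0.22 and 2.35 ± 0.22). Ifnar1, of the type I receptor, did not pass in either tissue (0.36 ± 0.23 and -0.04 ± 0.23), and Ifnar2 was higher in SI-pos (1.95 ± 0.36, adjusted p = 0.00149), with an adjusted p of 0.0907 in the gallbladder. The type II chain Ifngr1 was lower in IL-25+ cells of both tissues (-2.11 ± 0.35 and -2.28 ± 0.35), and Ifngr2 in the small intestine (-1.24 ± 0.24).

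Of 9 JAK-STAT genes, 2 were higher (22.2%, against 14.5% of all genes) and 1 lower (11.1%, against 12.8%) in the IL-25+ cells of the small intestine. In the gallbladder 1 was higher (11.1%, against 12.4%) and 2 lower (22.2%, against 14.4%). Ptpn6, a phosphatase known as a tuft cell gene, was higher in both (6.44 ± 0.23 and 5.48 ± 0.22), and Pias1 in the small intestine (0.99 ± 0.25), a call lost without SI-neg 1 (adjusted p 0.0545). Socs3, a feedback inhibitor, was lower in both (-2.37 ± 0.31 and -3.02 ± 0.31). Socs1, the feedback inhibitor of interferon receptors, had 0 counts in the 3 GB-pos libraries and 73 over GB-neg, at least 17.6-fold lower in GB-pos, counted against 3 counts over the group, and at least 145-fold lower than in SI-pos (337 counts).

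**Figure D5:**
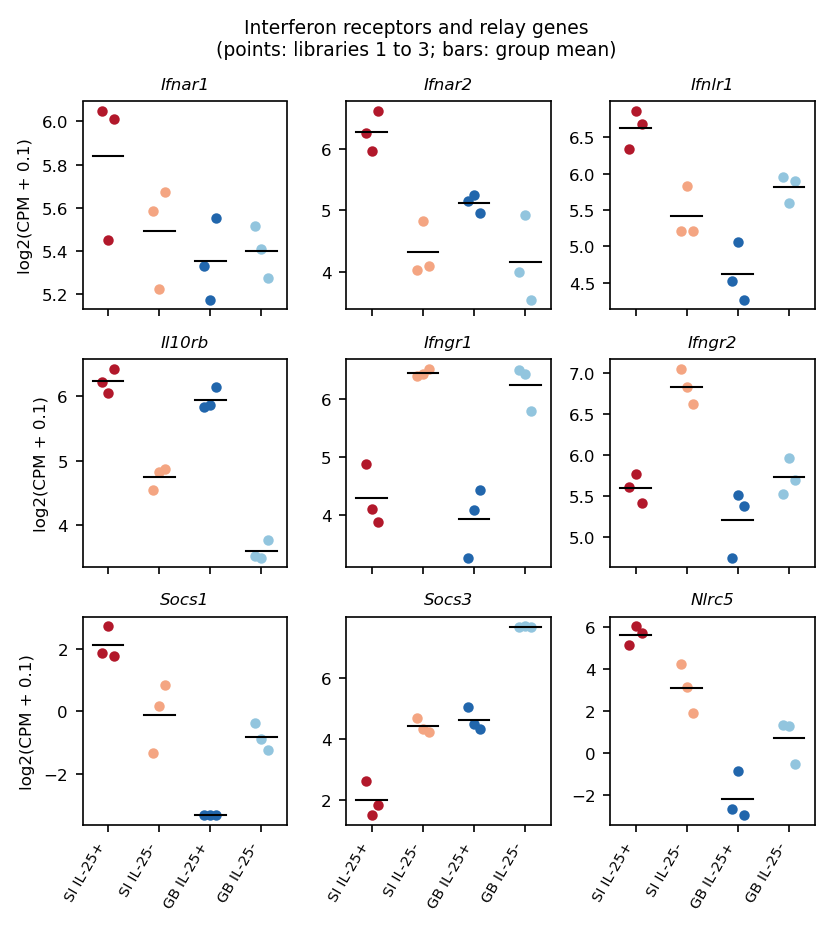
Level of the 6 interferon receptor chains and of Socs1, Socs3 and Nlrc5 as log2(CPM + 0.1) in the 12 libraries by group, with a bar for the mean of the log2 values and separate vertical scales. Ifnlr1 is higher in SI-pos than SI-neg and lower in GB-pos than GB-neg, and the 3 GB-pos points of Socs1 lie at 0 counts.

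Further regulators and adaptors of interferon induction were listed by 18 symbols, of which Mb21d1 is an older name of Cgas, also listed. The other 17 were in the table, and 16 were tested. In the small intestine 2 were higher and 2 lower (12.5% each, against 14.5% and 12.8% of all genes). In the gallbladder 1 was higher (6.25%, against 12.4%) and 6 were lower (37.5%, against 14.4%). Irf2 was higher in SI-pos (0.94 ± 0.22, adjusted p = 0.00683). The kinase Ikbke was lower in both tissues (-2.06 ± 0.57 and -3.34 ± 0.60), the small intestine call being lost without SI-pos 3 (adjusted p 0.0702), and Ticam1, the adaptor of Tlr3, was lower in GB-pos (-1.18 ± 0.24, adjusted p = 0.00276). Irf2bp2, a partner of Irf2, was also lower in GB-pos (-0.81 ± 0.20, adjusted p = 0.00936), and missed the threshold without SI-neg 3 and GB-neg 1 together (0.0537). Tmem173 (STING) was lower in both tissues (-3.60 ± 1.18 and -3.82 ± 1.12), the gallbladder call not being followed through the alternatives. Its small intestine call (adjusted p = 0.0377) was lost without any 1 GB-neg library, without SI-neg 1 or 3, and without SI-pos 1 or 2 (0.0525 to 0.107), and the value was -8.38 without SI-pos 3. Tlr9, a DNA sensor, averaged 75.5 CPM in GB-pos, with 1 count over GB-neg against 7552, a ratio of 1.04e+04 (1.87e+03 to 4.12e+05). In the small intestine it averaged 1.18 CPM in SI-pos and 0.108 CPM in SI-neg (3.49 ± 0.92, adjusted p = 0.0137), a call lost without SI-pos 2 or SI-neg 1 (0.0533 to 0.0717).

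A second list of 46 interferon-inducible genes, of which 43 were in the table and 37 were tested, showed 10 higher (27%, against 14.5% of all genes) and 1 lower (2.7%, against 12.8%) in SI-pos. In GB-pos 10 were higher (27%, against 12.4%) and 4 lower (10.8%, against 14.4%). In the small intestine the lowest adjusted p-values of the higher genes belonged to Pml (0.88 ± 0.18), the RNA editor Adar (1.44 ± 0.32) and Trim34a (3.04 ± 0.73). Those in the gallbladder were Slfn5 (7.91 ± 0.89), the GTPase Igtp (2.50 ± 0.36) and the nucleotide hydrolase Samhd1 (1.36 ± 0.24). Ly6e was lower in both (-1.13 ± 0.24 and -1.79 ± 0.24). Nlrc5, the activator of MHC class I genes, was higher in SI-pos (2.29 ± 0.77), a call not followed through the alternatives, and lower in GB-pos (-3.43 ± 0.90). The gallbladder value was -5.33 without GB-pos 2. Its adjusted p was 0.0579 without GB-pos 1, 0.0917 in the voom fit and 0.128 in the gallbladder libraries alone. Ifitm2 was lower in GB-pos (-1.65 ± 0.43), a call lost without GB-pos 1 or 3 (0.0512 to 0.0538). Between tissues, 15 of the 37 (40.5%, against 13.1% of all genes) were lower in GB-pos than in SI-pos and 18 (48.6%, against 11.7%) lower in GB-neg than in SI-neg. In each case 2 (5.41%) were higher, against 10.5% and 13.0%.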

How the data were processed

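The data are raw read counts per Ensembl gene, deposited by the authors as 1 table. Per the labels' protocols, sorted cells gave Nextera XT libraries (a kit whose reads carry no strand), sequenced as single-end 50 bp reads. Per the submitters' processing notes, reads were aligned with STAR 2.7.2b to GRCm38, and DESeq2 1.26 was used. The read counter, its strand setting and the annotation release are not given in the sources used here. The table has 11 columns more that fit no label, which were left out. Symbols, positions and exon lengths came from GENCODE M21 for GRCm38.

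The edgeR package (4.0.16, under R 4.3.3) was used on the counts as deposited. The filter was filterByExpr (minimum count 10, 16636 genes), library sizes were scaled by TMM, and a robust quasi-likelihood model with the group as factor was fitted to all 12 libraries, with two-sided tests and Benjamini-Hochberg adjustment over all genes per comparison. The SE is the size of the log2 fold change divided by the square root of F. CPM and RPKM use the TMM-scaled library sizes. Replicate libraries were checked to be distinct. Ratios against 1 to 3 counts carry exact 95% intervals, and a group at 0 counts was set to 3 counts in all for a fold. The procedure was tested on simulated counts. Promoters are from RefSeq (GRCm38.p6).

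Alternatives were RLE size factors, DESeq2 1.42.0, voom with quality weights (limma 3.58.1), no filter or a stricter one (5 CPM in 3 libraries), blocks by replicate number (over both tissues or nested in tissue), the compared groups alone, each library left out, SI-neg 3 with GB-neg 1 left out, and mitochondrial genes left out. The members, lists, tests and alternatives were chosen with earlier results of these data known, and 1 pathway gene and 1 marker gene are not reported here. Full values are given for the 6 called members of lowest adjusted p per direction in each fraction comparison, 4 in each tissue comparison, 8 in the interaction, members called in opposite directions and the 3 of highest RPKM per group. Python 3.11.15 was used for tables (pandas 2.3.3, numpy 2.4.6), intervals (scipy 1.17.1) and figures (matplotlib 3.10.9).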

Additional observations from a re-analysis of the deposited data

Results flagged for a closer look

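The gate effect differed between tissues in 16 members by the interaction test of edgeR's quasi-likelihood fit, given here as the log2 fold change in the gallbladder minus that in the small intestine. The values were -8.99 for Apol9b, -1.66 for Eif2ak2, -1.81 for Ifi27, -5.91 for Ifi44, -6.58 for Ifit2, -9.58 for Ifit3b, -3.07 for Isg15 and -1.94 for Lgals3bp. They were -8.43 for Mx1, -8.63 for Mx2, -2.49 for Oas1a, -1.94 for Oas1g, -4.23 for Oas2, -2.29 for Oasl2, -2.95 for Samd9l and -2.44 for Sp100. Those of Apol9b, Ifit2, Ifit3b and Mx2 rest on GB-pos libraries at or near 0 counts, where the fitted size depends on the prior count and is no bound.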

How the results depend on the processing

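Counts of called members stayed within 1.5 times of the reported ones except where named here, and 0 calls reversed. Of 109 member calls over the 5 comparisons, 78 held under each of the alternatives that could be run for them, and 31 were lost under at least 1. In the voom fit with quality weights, 38 of 47 members were higher and 2 lower in SI-pos, as were 3288 and 3544 of all 16636 genes. In GB-pos that fit called 5 members lower, and 2660 of all genes. With the compared groups fitted alone, 2 of 47 members were lower in SI-pos (2754 of all 14647 genes) and 4 of 44 lower in GB-pos (1894 of all 14389 genes). In both of these fits the share of members lower in GB-pos was below that of all genes, unlike in the main fit. Leaving out single libraries gave 3 to 5 members higher in GB-neg than in SI-neg and 0 to 1 with a higher interaction. In the interaction, DESeq2 and the fit with a replicate block each called 1 member higher, beside 1221 and 533 of all 16636 genes. Whether the numbers pair the libraries is not given in the labels. Deviations of same-numbered IL-25+ and IL-25- libraries correlated by 0.0256, -0.00211 and -0.0281 in the small intestine. In the gallbladder the values were 0.0939, 0.0188 and 0.162. With 3 libraries per group these values cannot settle it. With the block, Ifit3b in the small intestine (adjusted p 0.0725) and Trim25 between the IL-25+ fractions (0.0594) did not pass, and with the block nested in tissue, Ifit3b (0.0784), Gbp2 in the gallbladder (0.0624) and the interactions of Isg15 (0.0507) and Ifit2 (0.0501) did not. That block nested in tissue could not be used between tissues. Low counts limit Ifit2, Ifit3, Ifit3b, Mx2, Gbp2 and Apol9b in GB-pos.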
